A study of Mus musculus with 2 samples.

Results

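Mir208a, Mir208b, Mir499 and Mir486 are 4 mouse microRNA (miRNA) genes that lie inside muscle structural genes: the first 3 in the myosin heavy chain genes Myh6, Myh7 and Myh7b, and Mir486 in the ankyrin gene Ank1. They were chosen by name for their host genes, and they are 4 of the 2202 miRNA genes counted in the study. Small RNA below 30 bases was sequenced from the calf muscle gastrocnemius, in 2 female B6CASTF1/J mice at 4 days of age. B6CASTF1/J animals are first-generation hybrids of C57BL/6J and CAST/EiJ mice. No treatment or genotype was compared, so the data form 1 group of 2 libraries. The labels give the libraries separate biological replicate numbers, and number the animals as female 3 (library 1) and female 4 (library 2), but attach the same donor record to both. Library 1 held 5569392 reads on the own strand of a counted gene and library 2 held 4336759, and levels are counts scaled to these totals (counts per 1e6, CPM). Among reads assigned to a single gene, Mir206, a defining miRNA of skeletal muscle, had more counts than any other gene in both libraries.

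An intronic miRNA is cut from the primary transcript of its host gene, so it is often made in the same cells as the host. Myh6 encodes the fast alpha myosin of the heart, Myh7 encodes the slow myosin of the heart and of slow skeletal fibres, and Myh7b encodes a further slow-type myosin. Mir208a is best known from the heart, while Mir208b and Mir499 are known from slow fibres, where they repress transcriptional repressors of the slow programme such as Sox6. Mir486 is abundant in muscle and in maturing red blood cells. Ank1 itself encodes ankyrin of the red cell membrane, and a short form of it is made in muscle from an internal promoter.

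Mature sequences were taken from RefSeq (GRCm38.p6), where 3 of the 4 genes were matched by symbol and Mir486 was not. The arms for which these genes are best known are printed 5′ to 3′ with the seed, bases 2 to 8, in capitals. The seed is the stretch that pairs with target messages, and it is what places these genes in families.
miR-208a-3p: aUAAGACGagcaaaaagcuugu
miR-208b-3p: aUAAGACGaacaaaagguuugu
miR-499-5p: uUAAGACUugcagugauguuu
miR-208a-3p and miR-208b-3p have the same seed. They are identical at 19 of 22 positions, and going from miR-208a-3p to miR-208b-3p the changes are G10A, A16G and C18U, counted from the 5′ end. miR-499-5p matches both at 6 of the 7 seed bases and differs at the last one, G8U. Outside the seed it is far less alike, with 6 of 14 compared positions identical to miR-208a-3p and 4 of 14 identical to miR-208b-3p. Among the 1738 mature mouse miRNAs in the RefSeq table, only miR-208a-3p and miR-208b-3p had the letters UAAGACG at bases 2 to 8, and only these 2 and miR-499-5p had UAAGAC at bases 2 to 7.

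The hairpins show from which side of the stem each arm is cut. They are printed whole because the counts are per hairpin, and the capitals mark the arm given above.
Mir208a hairpin: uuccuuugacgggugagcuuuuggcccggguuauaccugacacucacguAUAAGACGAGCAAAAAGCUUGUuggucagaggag
Mir208b hairpin: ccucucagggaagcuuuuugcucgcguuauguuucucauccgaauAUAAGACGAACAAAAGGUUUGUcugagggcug
Mir499 hairpin: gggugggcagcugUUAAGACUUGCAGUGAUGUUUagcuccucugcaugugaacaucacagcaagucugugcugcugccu
The marked arm covers bases 50 to 71 of Mir208a, bases 46 to 67 of Mir208b and bases 14 to 34 of Mir499. The related seeds therefore sit on the 3′ arm in the Mir208 genes and on the 5′ arm in Mir499. The deposited counts do not separate the arms of a hairpin. On the same strand, the longest stretch that Mir208a shares with any other counted hairpin was 12 bases, against 11 for Mir208b and 12 for Mir499. No stretch of 18 bases of these 3 hairpins occurred in another counted hairpin on either strand, so their exact reads can be told apart among the counted genes.

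By GENCODE M21 on the mm10 assembly, Mir208a lies at chr14:54949060-54949142 on the minus strand, in intron 29 of a Myh6 transcript with 39 exons. Mir208b lies at chr14:54975700-54975776, also on the minus strand, in intron 31 of a Myh7 transcript with 41 exons. The host genes are tandem neighbours separated by 3.76 kb, and the hairpins are 26.6 kb apart. Mir499 lies at chr2:155622880-155622958 on the plus strand, in intron 19 of the 42-exon Myh7b transcript. These introns are short, at 542, 461 and 481 bases. Mir486 lies at chr8:23142555-23142682 on the plus strand. It sits in the 3′ part of Ank1, 95.5% along the host gene, inside the last or a late intron of each of the 15 Ank1 transcripts that span it, and in an exon of none of them. The most distant of their starts is 168 kb upstream, but 3 of the 12 protein-coding ones start within 4 kb of it, the nearest 3.28 kb away. The 3 myosin-hosted genes lie 11.7 to 18.9 kb from the starts of the transcripts that span them.

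**Figure D1:**
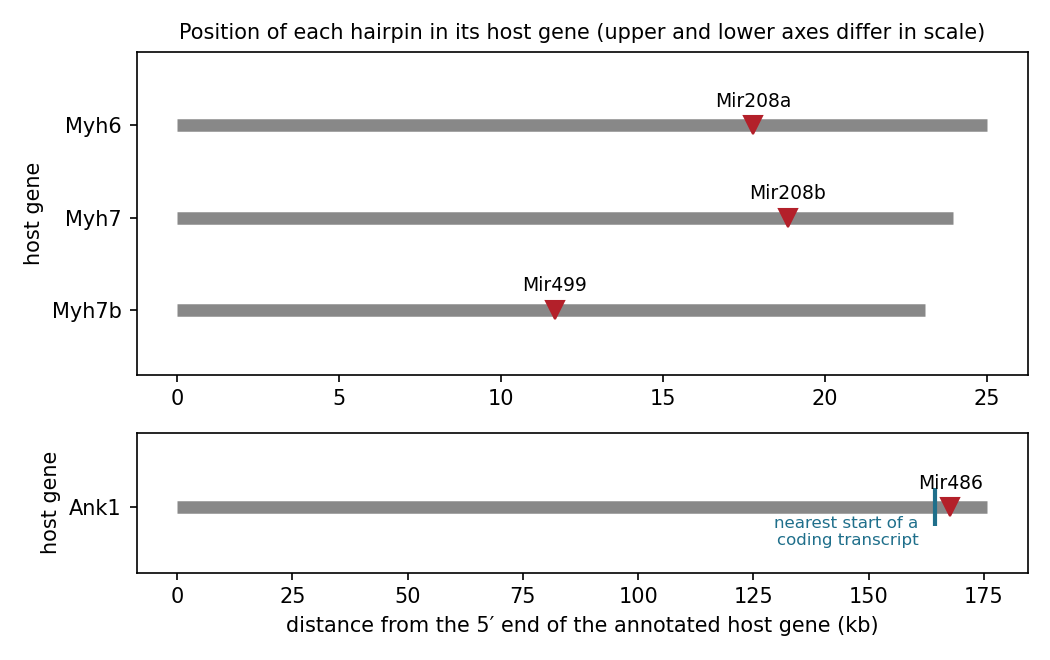
Position of each hairpin (red triangle) along its host gene (grey bar), as the distance in kb from the 5′ end of the annotated gene, with the upper and lower axes drawn to different scales. The myosin-hosted genes lie in hosts of 23.1 to 25.0 kb, while Mir486 lies near the 3′ end of the 176 kb Ank1 gene, next to the start of a short coding transcript (blue bar).

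Mir499 was the most abundant of the 4 genes, followed by Mir208b, Mir486 and Mir208a, in both libraries. This order holds for reads assigned to a single gene, and the place of Mir486 in it is uncertain, since reads from its stem can match a second gene, Mir3107, and then go uncounted. Mir499 had 7194 counts in library 1, or 1292 CPM, and 4539 counts in library 2, or 1047 CPM. Its mean level was 1169 ± 173 CPM (SD, n = 2), which placed it at rank 81 of all counted genes. Mir208b had 1040 counts in library 1, or 187 CPM, and 542 counts in library 2, or 125 CPM, with a mean of 156 ± 43.7 CPM (SD, n = 2) and rank 155. Library 1 was the higher one for both genes.

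Mir486 had 445 counts in library 1, or 79.9 CPM, and 411 in library 2, or 94.8 CPM. Its mean of 87.3 ± 10.5 CPM (SD, n = 2) gave it rank 185. In counted reads, library 2 was the higher one here, the opposite of the slow myosin pair. Mir208a had 31 counts in library 1 and 23 in library 2, or 5.57 and 5.30 CPM, with a mean of 5.43 ± 0.186 CPM (SD, n = 2) and rank 294. Its counting error alone was 17.96% in library 1 and 20.85% in library 2, wider than the distance between its libraries.

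All 4 genes were detected, meaning 2 CPM or more in both libraries, as were 335 of the 2202 genes counted, whose median level was 123 CPM. In counted reads, Mir499 and Mir208b lay above that median, and Mir486 and Mir208a below it, with the limit on Mir486 given above. Even Mir208a stood clear of the level that a count of 0 allows, which is 3 counts, or 0.539 CPM in library 1 and 0.692 CPM in library 2. In these counted reads, neighbours in the order of levels did not overlap between libraries: the lower library of Mir208b (125 CPM, 95% counting interval 115 to 136) was above the higher library of Mir486 (94.8 CPM, 85.8 to 104). Together the 4 genes held 0.142% ± 0.0207 (SD, n = 2) of the gene counts, of which Mir499 made up 82.6% in library 1 and 82.3% in library 2. Any reads of Mir486 that also match Mir3107 are missing from these shares. Reads without molecular identifiers can be copies of 1 molecule, so every interval here is for counting error alone. In tissue, fewer cells of a type and less RNA per cell cannot be told apart.

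**Figure D2:**
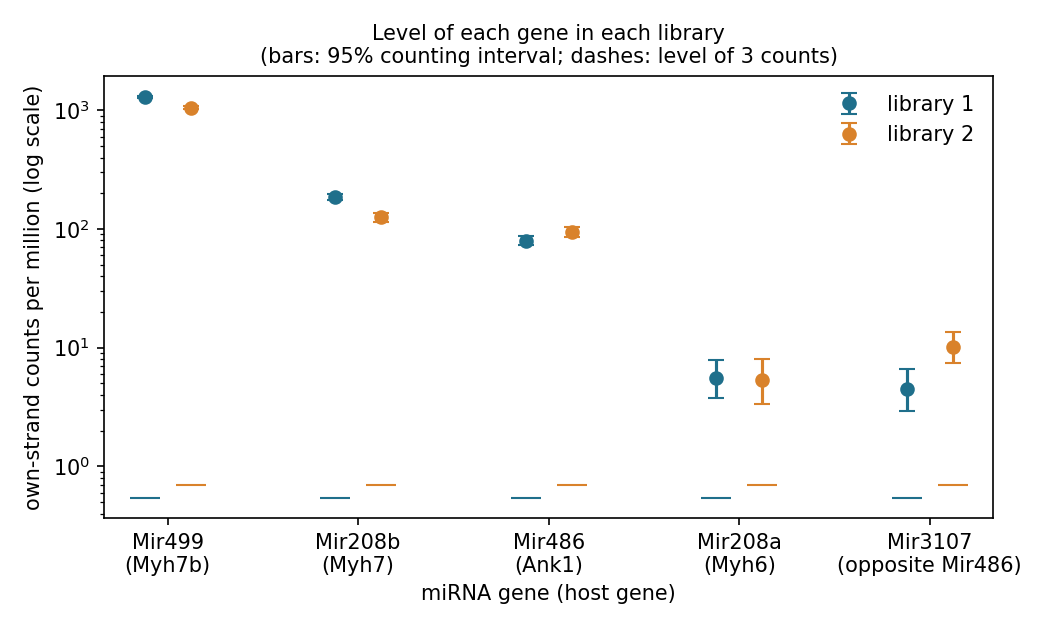
Own-strand CPM of the 4 genes and of Mir3107, which lies opposite Mir486, in each library on a log scale, with 95% counting intervals and the level of 3 counts as dashes. Mir499 sits at 1292 and 1047 CPM, Mir208b and Mir486 sit between 79.9 and 187 CPM, and Mir208a sits at 5.30 and 5.57 CPM.

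Read by seed, the counts of the shared UAAGACG family came almost entirely from Mir208b. It supplied 97.1% (95% exact Clopper-Pearson interval 95.9 to 98.0) of the 1071 Mir208a and Mir208b counts in library 1. In library 2 it supplied 95.9% (94.0 to 97.4) of 565 counts. When Mir499 was added through the shorter UAAGAC match, it made up 87.0% (86.3 to 87.8) of 8265 counts in library 1 and 88.9% (88.0 to 89.8) of 5104 in library 2. The hairpin with the divergent last seed base was thus the largest part of the group in both libraries. These shares assume that the counted reads come from the printed arms, which the per-hairpin counts cannot show. They are shares of reads, and how evenly the different miRNAs were captured was not measured.

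Between the libraries, 3 of the 4 genes differed beyond counting error, where 55.5% of the 335 detected genes did so. The test was an exact two-sided binomial test of the counts with Benjamini-Hochberg adjustment over all detected genes. It compares these libraries and no conditions, and it carries no spread between animals. Mir499 was lower in library 2, with a log2 ratio of library 2 over library 1 of -0.33 (95% counting interval -0.38 to -0.27, adjusted p = 2.32e-32 by that binomial test). Mir208b was also lower in library 2, at -0.60 (-0.75 to -0.45, adjusted p = 5.31e-15 by the same test). Of all detected genes, 26.9% were called lower in library 2 and 28.7% higher. That balance depended on the scaling, with 90 genes lower and 96 higher by TMM but 117 lower and 73 higher with DESeq2 size factors, while Mir499 and Mir208b were called lower under both.

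Mir486 was called higher in library 2 at a log2 ratio of 0.22 (0.03 to 0.42), with an adjusted p of 0.0462 by the binomial test. That call was lost with DESeq2 size factors, where the log2 ratio was 0.15 and the adjusted p 0.202, and with no detection filter, where the adjusted p was 0.0934. Over its alternatives the adjusted p ranged from 0.0249 to 0.202. The call also rests on counted reads only. Reads that match Mir3107 as well had no part in it, and the read lengths of the libraries were not compared. Mir208a was not called, at -0.09 with a wide interval of -0.94 to 0.73 and an adjusted p of 0.933 by the binomial test. That interval holds the value of Mir208b, so a difference of the same size is not excluded at 31 and 23 counts.

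Set beside all detected genes, the difference of Mir208b was among the larger ones and that of Mir208a among the smaller ones. The comparison was not matched for level, and genes with few counts have wide counting intervals. The median absolute log2 ratio over the 335 genes was 0.21. A larger absolute ratio was found in 14.3% of them than in Mir208b, in 33.1% than in Mir499, in 47.8% than in Mir486 and in 78.2% than in Mir208a. Mir208b had the largest coefficient of variation of the 4 genes over these 2 libraries, at 28.0%. It was 14.8% for Mir499, 12.04% for Mir486 and 3.42% for Mir208a. The counting interval of Mir208a holds the ratio of Mir208b, so Mir208a cannot be called the less variable of the pair.

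**Figure D3:**
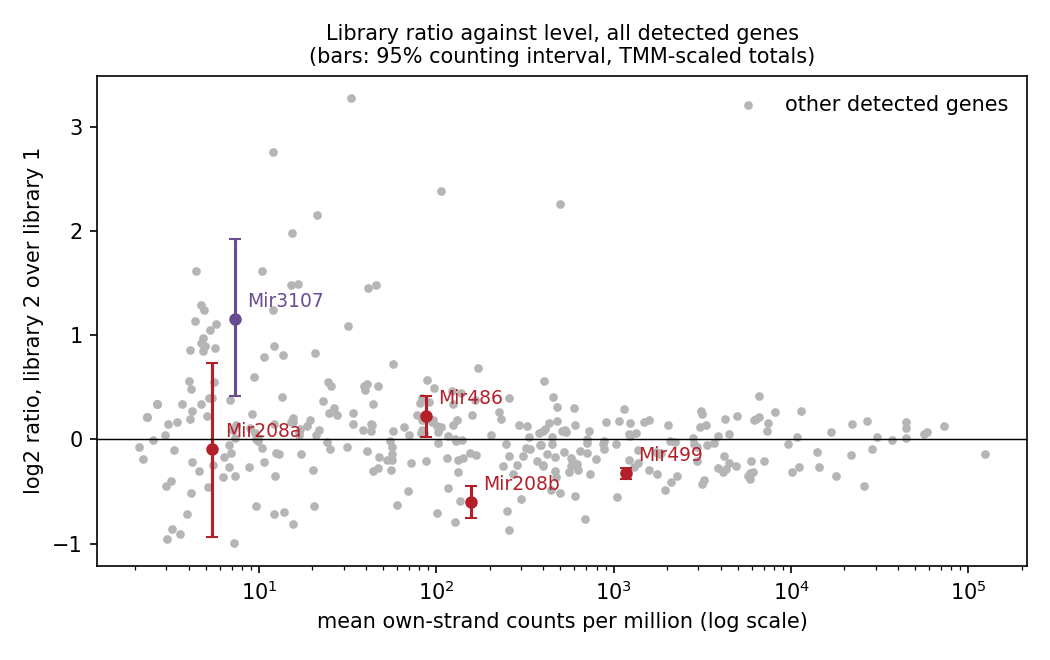
Log2 ratio of library 2 over library 1 against mean CPM (log scale) for the detected genes, with TMM-scaled totals. The 4 genes (red) and Mir3107 (purple) carry 95% counting intervals: Mir499 and Mir208b lie below 0, the interval of Mir486 starts at 0.03, and that of Mir208a spans 0.

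Ratios between genes within a library do not depend on how the libraries are scaled. They are ratios of counted reads and not of molecules, since how evenly different miRNAs were captured was not measured. Reads of such a library span a mature miRNA and not the length of the hairpin, so counts were compared per gene, with the mean ratio per base of annotated hairpin beside them. Mir499 exceeded Mir208b 6.92-fold (95% counting interval 6.48 to 7.39) in library 1 and 8.37-fold (7.66 to 9.17) in library 2, with a mean of 7.65 ± 1.03 (SD, n = 2). The ratio in library 2 was 1.21 times that in library 1 (1.08 to 1.35), so Mir208b was lower relative to Mir499 in library 2. Per base of hairpin the mean ratio was 7.45.

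Mir208b exceeded Mir208a, its neighbour on chromosome 14, 33.5-fold (23.5 to 49.6) in library 1 and 23.6-fold (15.5 to 37.5) in library 2. The mean ratio was 28.6 ± 7.06 (SD, n = 2), or 30.8 per base of hairpin. These intervals overlap, and the interval of the change between libraries, 0.392 to 1.28, includes 1. Mir499 exceeded Mir208a 232-fold in library 1 and 197-fold in library 2, again with overlapping intervals, and the mean of 215 ± 24.5 (SD, n = 2) became 226 per base of hairpin. Mir499 exceeded Mir486 16.2-fold (14.7 to 17.8) in library 1 and 11.0-fold (9.98 to 12.2) in library 2, where the intervals do not overlap. This ratio carries the same limit on the count of Mir486. Because the Mir486 hairpin is annotated at 128 bases, against 79 for Mir499, the mean ratio of 13.6 ± 3.62 (SD, n = 2) became 22.04 per base of hairpin.

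**Figure D4:**
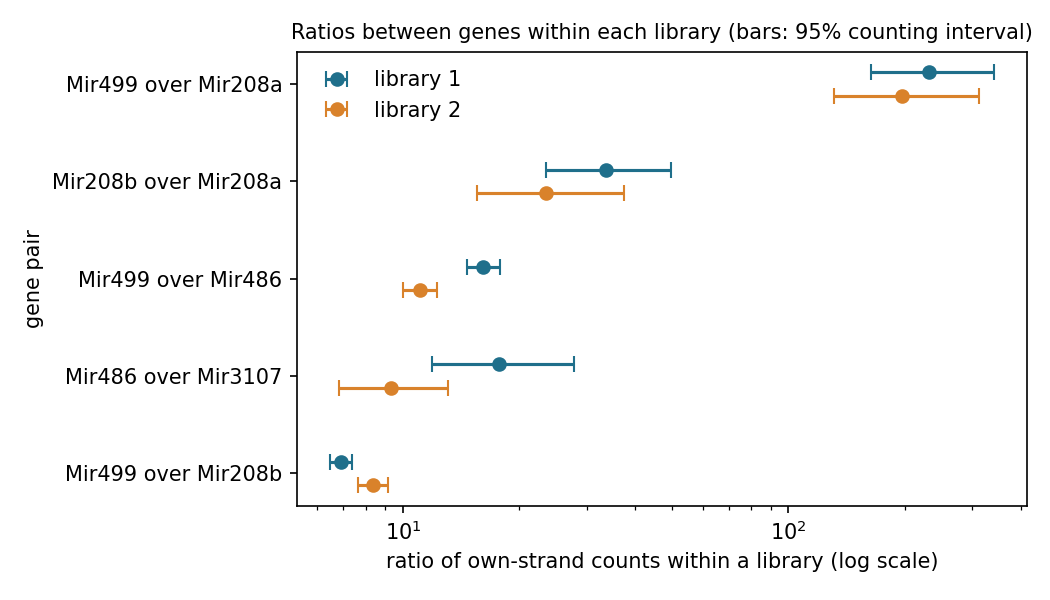
Ratios of own-strand counts between gene pairs within each library, on a log scale, with 95% counting intervals. The libraries separate for Mir499 over Mir208b (6.92 and 8.37) and for Mir499 over Mir486 (16.2 and 11.0), and the intervals of the other 3 pairs overlap between libraries, although the change in Mir486 over Mir3107 has an interval below 1 (0.302 to 0.895).

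The count of Mir486 needs separate reading, because another counted gene, Mir3107, lies on the opposite strand inside it. Mir3107, also known as mir-486b, is annotated at chr8:23142573-23142662 on the minus strand, and all of its 90 bases overlap Mir486. The stem is close to a palindrome, so each gene read on its own strand contains stretches of the other. Mir486 and Mir3107 share 2 stretches of 22 bases in the same sense, at bases 33 to 54 and 73 to 94 of the Mir486 hairpin, and none of 23 bases. A read of 22 bases or fewer that lies wholly in such a stretch matches both strands of the locus exactly. The deposited tables keep reads that match several places in a line of their own, which held 36.9% of all reads in library 1 and 37.6% in library 2. How many of those came from this locus cannot be read from the tables, and the level of Mir486 is therefore of the counted reads only.

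Reads counted for Mir3107 were few, at 25 in library 1 and 44 in library 2, or 4.49 and 10.1 CPM. Mir486 exceeded Mir3107 17.8-fold (95% counting interval 11.9 to 27.8) in library 1 and 9.34-fold (6.83 to 13.1) in library 2. The ratio in library 2 was 0.525 times that in library 1 (0.302 to 0.895). Mir3107 was higher in library 2 at a log2 ratio of 1.15 (0.41 to 1.92, adjusted p = 0.00323 by the binomial test over all detected genes). When strand was ignored, Mir486 and Mir3107 both had 0 counts in both libraries, while Mir208a, Mir208b and Mir499 had the same counts as on their own strand. These 3 genes had 0 reads on the opposite strand in both libraries.

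The other classical muscle miRNAs gave a mixed background. Of 8 listed genes, 5 were detected, of which 1 was called lower in library 2 and 4 were not called, with a median log2 ratio of 0.09 against 0.03 for all detected genes. The gene called lower was Mir206, which is induced as myoblasts differentiate, at 129336 CPM in library 1 and 119323 CPM in library 2. It lay far above Mir499 in both. Mir133b, its neighbour, was at 79.7 and 86.0 CPM, close to Mir486. Mir1a-2 was at 16.3 and 17.8 CPM. Mir133b shares 21 bases with Mir133a-1, and Mir1a-2 shares 28 with Mir1a-1, so reads of these genes can also match several places and their levels are of the counted reads only. A list of 41 miRNA genes of coding hosts, of which 39 lie inside a coding gene on the same strand, had 39 members detected. Of these, 11 were called higher in library 2, 13 lower and 15 not called. Over all 335 detected genes, 28.7% were called higher and 26.9% lower. The list had a median log2 ratio of -0.03 and a median level of 323 CPM. In counted reads, Mir499 lay above that level and the other 3 genes below it. The 3 highest of that list were Mir378a at 58024 ± 2753 CPM (SD, n = 2), Mir335 at 44684 ± 4075 CPM and Mir126a at 25725 ± 5365 CPM. The level of Mir378a is uncertain too, since it shares 20 bases with Mir378c. In this list, shared stretches were searched only for these 3 genes, so its median is of the counted reads only.

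Several markers of other cell types were also called between the libraries, as were 55.5% of all detected genes. The erythroid markers, given here because Mir486 is known from red cells too, summed to 96.8 CPM in library 1, and in library 2 to 119 CPM. Of these 2 genes, Mir451a was called higher in library 2, with a log2 ratio of 0.40 (0.19 to 0.60) and a mean of 83.1 ± 16.9 CPM (SD, n = 2). Mir144 was not called, at 25.7 and 24.4 CPM. The mean of Mir486 lay near that of Mir451a in counted reads. Leukocyte markers went the other way, like Mir499 and Mir208b, at a sum of 1013 CPM for library 1 and 652 CPM for library 2. Of these 5 genes, 4 were called lower, where 26.9% of all detected genes were. Their 3 highest were Mir146, which shares 21 bases with Mir146b, at 357 and 244 CPM, Mir223, at 331 and 184 CPM, and Mir142, at 161 and 94.5 CPM. The endothelial gene Mir126a was at 29519 and 21931 CPM, and was called lower in library 2. The 2 smooth muscle genes were called in opposite directions, with Mir143 higher in library 2, at 24964 and 28592 CPM, and Mir145a lower, at 545 and 508 CPM. So were the 2 liver markers, with Mir122 higher in library 2, at 169 and 824 CPM, and Mir192 lower, at 14.9 and 9.22 CPM. None of these markers was at 0 in either library, and the part of any of them in the differences of the 4 genes was not tested.

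The 3 detected genes most like each member were taken by distance on log2(CPM + 0.5) over the 2 libraries, which with so few libraries mainly ranks genes by level. Mir501, Mir342 and Mir93 lay closest to Mir499, with Mir501 at 1300 and 1149 CPM. Closest to Mir208b were Mir301, Mir125b-2 and Mir186, with Mir301 at 162 CPM in library 1 and 109 CPM in library 2. Closest to Mir486 were Mir3102, Mir450-1 and Mir669o, and closest to Mir208a were Mir6516, Mir26a-1 and Mir212. Stretches that these neighbours share with other genes were not searched, so the distances are of the counted reads only.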

How the data were processed

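The authors deposited 1 table of raw counts per gene for each library, made on mm10 and GENCODE M21, per the labels and the accompanying text. Which aligner and counter were used is not given in the sources used here. Of the 3 count columns, the sums show reads without regard to strand, on the gene's own strand and on the opposite strand, and own-strand counts were used. The 4 lines that name no gene held 46.6% of reads in library 1 and 48.9% in library 2 and were left out of totals.

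Identifiers were matched to GENCODE M21 symbols, and all 2202 matched. CPM used gene totals. Libraries were compared with an exact binomial test on TMM-scaled totals (edgeR 4.0.16, R 4.3.3), adjusted by Benjamini-Hochberg over genes at 2 CPM or more in both libraries, with a threshold of 0.05. DESeq2 1.42.0 size factors were an alternative. Intervals are exact at 95% (scipy 1.17.1, Python 3.11.15). Shared stretches came from GENCODE M21 transcript sequences, and mature sequences from RefSeq. Named genes are the 4 members, the 3 highest of each list, the 3 detected genes nearest each member, and genes overlapping or sharing 18 bases with a member. Mir133b and Mir1a-2 are among the 3 highest other myomiRs. The members and lists were chosen with earlier results of these data known.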

Additional observations from a re-analysis of the deposited data

Results flagged for a closer look

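Outside the own-strand counts used for the levels, Mir486 had 25 reads on its opposite strand in library 1 and 44 in library 2. Both exceed 3 counts, the upper limit for a count of 0. They equal the own-strand counts of Mir3107. The line of reads that matched several places held 36.9% of all reads in library 1 and 37.6% in library 2, far more than 3 reads, and it names no gene.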

How the results depend on the processing

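Of 64 alternative values, 55 were classed as unchanged. A library ratio had to keep its direction and call, and a level or gene ratio had to shift by less than the SD. The number of genes called had to stay of similar size, whatever the balance of higher and lower. With 2 libraries, leaving out a library cannot shift a level or gene ratio by that SD, so those values could not be classed otherwise. With strand ignored, ratios among Mir208a, Mir208b and Mir499 rest on the same counts. With all reads in the denominator, Mir208a was at 2.84 CPM, Mir208b at 81.8, Mir499 at 612 and Mir486 at 45.6. With strand ignored, Mir208a was at 6.19 CPM and Mir486 at 0, since its reads count as ambiguous with Mir3107, and no library ratio of Mir486 could be computed. The log2 ratio of Mir486 was 0.15 (adjusted p = 0.202, binomial test) with DESeq2 size factors and 0.22 (adjusted p = 0.0934) with no detection filter, and it was not called under either. Its adjusted p over all alternatives ranged from 0.0249 to 0.202. Per base of hairpin, Mir499 over Mir486 was 22.04. Genes called higher and lower in library 2 numbered 96 and 90 with TMM and 73 and 117 with DESeq2 size factors. Mir208a fell below the 10 CPM filter and had no value there. Leaving out a library gave levels of 5.30 to 5.57 CPM for Mir208a, 125 to 187 for Mir208b, 1047 to 1292 for Mir499 and 79.9 to 94.8 for Mir486, with no test. Summing Mir486 with Mir3107, chosen after seeing the data, gave 94.7 CPM. No paired analysis was possible because the series has 1 group. Depth limits Mir208a most.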
